A study of Mus musculus with 12 samples.

Results

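Primary mouse embryonic fibroblasts that received SNAP-p53DD and RepSox on top of a motor neuron conversion cassette (SDD) were compared with fibroblasts that received the cassette alone (NIL). The comparison holds 6 of the 12 samples of the series, SDD A, B and C and NIL A, B and C, taken by their labels. Both groups carried the Hb9::GFP reporter, were grown with 10% serum and were infected with the retrovirus Ngn2-2A-Isl1-2A-Lhx3, and both were moved at 3 days post infection to a neuronal medium with N2, B27, BDNF, GDNF, CNTF and FGF. SDD cells also received a retrovirus for SNAP-p53DD, were given RepSox from day 3, and at day 4 were stained with a fluorescent SNAP substrate and sorted as SNAP-positive cells. NIL cells received no RepSox and no stain and were sorted at day 4 as live single cells, so their sort selected for no virus. The p53DD fragment, RepSox, the stain and sort, and the second virus changed together, and their parts in any difference cannot be told apart. The other 2 groups of the series, SDDIR and RISDD, carried HRAS(G12V) in addition to everything SDD had, and served to estimate the spread.

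p53 is a transcription factor that switches on genes for cell-cycle arrest, cell death, DNA repair and its own degradation. p53DD is a C-terminal fragment of p53 that joins the full-length protein and keeps it from working. RepSox inhibits the TGF-beta type I receptor, through which fibroblasts are driven to make matrix and contractile proteins. Neurog2, a proneural factor, and the LIM-homeodomain factors Isl1 and Lhx3 together install a spinal motor neuron programme, of which Mnx1 (Hb9) is a marker.

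The values are normalised read counts, that is gene counts divided by 1 constant per library, and each library held 16200861 to 29815073 reads in SDD and 17165552 to 23231447 in NIL. A gene was called when its limma adjusted p was under 0.05 on log2(value + 1). Of 14207 tested genes 2498 were called (17.6%), 1324 higher in SDD (9.32%) and 1174 lower (8.26%), with a median log2 change over all tested genes of 0.05. NIL C stood apart. Its log2 values rose by 1.04 per 10 percentage points of GC content relative to the mean of all libraries, against slopes of -0.15 to -0.05 in the other SDD and NIL libraries, and mitochondrially encoded genes took 0.537% of its signal, against 3.62% and 4.00% in NIL A and B and 2.60% to 2.94% in SDD. Without NIL C 4128 genes were called (29.1%), 2160 higher (15.2%) and 1968 lower (13.9%), at a median of -0.001. Of the 2498 calls 2379 were kept without NIL C in the same direction, 119 were lost and 0 turned round. The 3 SDD libraries lay above the 3 NIL libraries in 2698 of the 14207 tested genes and below them in 2459 (17.3%). Values of single libraries are given in the order A, B, C. Counts of list members are given with all libraries and then without NIL C. Each is to be read beside the shares of all tested genes called, given above, near which some lists lay. Because these are bulk samples, fewer cells of a type and less RNA per cell cannot be told apart.

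Transcripts of another cell type also differed. Of 17 tested macrophage and leukocyte markers 6 fell and none rose, where 8.26% of all tested genes fell, and the summed value of all 18 in the table was 917 to 2270.4 in the SDD libraries and 4722 to 18216 in the NIL libraries. All 3 defining markers were detected in every library. Ptprc, the pan-leukocyte phosphatase, had 22.6, 63.8 and 32.6 in SDD, against 56.97, 363 and 54.4 in NIL. The receptor Csf1r had 56.4, 116 and 74.9 in SDD, against 226, 1037 and 621 in NIL. Neither passed (limma adjusted p = 0.187 and 0.0554). The lysosomal protein Cd68 fell (52.995, 124 and 92.8 in SDD, against 139, 419 and 281 in NIL; log2 change -1.57, SE 0.40, limma adjusted p = 0.0233). The count of falling markers was 1 without SDD A, 2 without SDD C or NIL B, 4 without SDD B or NIL C and 11 without NIL A. Cd68 lost its call without SDD A (limma adjusted p = 0.0884), SDD C (limma adjusted p = 0.0636) or NIL B (limma adjusted p = 0.0515). Cd68 did not pass with only the 6 SDD and NIL libraries fitted. Cd68 did not pass with only the SDD and NIL libraries fitted and NIL C left out. The share that these cells had in the results below was not tested.

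The delivered genes were read first. The Trp53 row, which also counts the p53DD fragment, had 32346, 40363 and 40127 in SDD, against 2873, 3058 and 3674 in NIL, an 11.8-fold difference (log2 change 3.55, SE 0.14, limma adjusted p = 9.66e-07). Every SDD library was above every NIL library, the direction that the labels give. Neurog2 had 60593, 79075 and 73575 in SDD, against 59695, 58398 and 167282 in NIL. Isl1 had 112759.6, 141762 and 139696 in SDD, against 106246, 112049 and 163542 in NIL. Lhx3 had 103782, 136749.9 and 130381 in SDD, against 100451, 102271 and 258391 in NIL. None of the 3 cassette genes was called (limma adjusted p = 0.637, 0.817 and 0.722), and in each of them NIL C was the highest library, outside the range of all SDD libraries. Endogenous and viral transcripts were not separated in these rows.

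Large changes were ranked among genes called both with and without NIL C that had a mean of at least 100 in SDD or NIL and no overlap between the groups. Genes of lower level, some with larger changes, are not in this ranking. The largest rise was in Nr4a3, an orphan nuclear receptor of the immediate early class, with 3251, 1978 and 1773 in SDD, against 31.7, 22.3 and 26.2 in NIL (log2 change 6.36, SE 0.26, limma adjusted p = 9.66e-07). The 14 rises after it spanned 8.89- to 47.05-fold. They were the immediate early genes Nr4a1, Egr4, Fosb, Atf3, Dusp1 and Nr4a2, the paternally expressed imprinted genes Magel2 and Usp29, the serotonin receptor Htr2c, the chemokine Ccl5, the antiviral enzyme Rsad2, the interferon-induced GTPase Gbp6, the inhibitor of differentiation Id1, and the Trp53 row. Htr2c, which couples serotonin to phospholipase C, had 485, 195 and 295 in SDD, against 35.8, 12.3 and 13.6 in NIL (log2 change 3.99, SE 0.53, limma adjusted p = 0.00122). Gbp6 had 953, 1251 and 1478 in SDD, against 165, 194 and 66.97 in NIL (log2 change 3.22, SE 0.49, limma adjusted p = 0.0025). Rsad2 did not pass with array weights.

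The largest falls by the same ranking were of a different kind. Pierce1, a p53-regulated gene of cilia, had 0, 7.74 and 1.84 in SDD, against 105, 61.3 and 145 in NIL (log2 change -5.08, SE 0.86, limma adjusted p = 0.00395). Deep falls were also found in genes of cell junctions and patterning. Dsp, the desmosomal plaque protein, had 56.4, 37.7 and 41.2 in SDD, against 839.8, 882 and 864 in NIL (log2 change -4.25, SE 0.25, limma adjusted p = 9.62e-06). The ligand Wnt3 had 14.7, 15.5 and 12.9 in SDD, against 219, 203 and 298 in NIL (log2 change -3.96, SE 0.21, limma adjusted p = 6.00e-06). The basal keratinocyte transcription factor Bnc1 had 7.89, 9.67 and 5.53 in SDD, against 105, 100.3 and 106 in NIL (log2 change -3.62, SE 0.42, limma adjusted p = 6.40e-04). In each of the 3 every SDD library was below every NIL library. Serpine2, an inhibitor of thrombin and plasminogen activators, had 704, 605 and 419.6 in SDD, against 7499, 8853 and 4913 in NIL (log2 change -3.61, SE 0.24, limma adjusted p = 3.15e-05). The adenylate kinase Ak1 had 229, 337 and 225 in SDD, against 2541, 2889 and 3090.5 in NIL (log2 change -3.45, SE 0.19, limma adjusted p = 6.18e-06). Gzme, a granzyme, and Mcpt8, a protease named for mast cells, both lie in a serine protease cluster on chromosome 14. Gzme had 2.26, 17.4 and 9.83 in SDD, against 172, 216 and 154 in NIL. Mcpt8 had 247, 378 and 203 in SDD, against 3035, 3919 and 1770.4 in NIL. Both fell (log2 changes -4.38 and -3.37, limma adjusted p = 8.53e-04 and 1.49e-04). The remaining falls of the 15 in this ranking were Perp, a p53 target of the desmosome, Lrrc32, which holds latent TGF-beta at the cell surface, Lrrc15, a TGF-beta-induced membrane protein of myofibroblasts, and 4 genes that macrophages express, Cx3cr1, Trem2, Fcgr3 and the scavenger receptor Stab1. These 7 spanned 8.45- to 27.9-fold. Trem2 and Fcgr3 lost their calls without SDD A (limma adjusted p = 0.0535 and 0.0771). Fcgr3 lost its call without NIL B (limma adjusted p = 0.0629). Cx3cr1 and Fcgr3 did not pass with only the 6 SDD and NIL libraries fitted. Trem2 and Fcgr3 did not pass with array weights. Fcgr3 did not pass with only the SDD and NIL libraries fitted and NIL C left out.

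**Figure D1:**
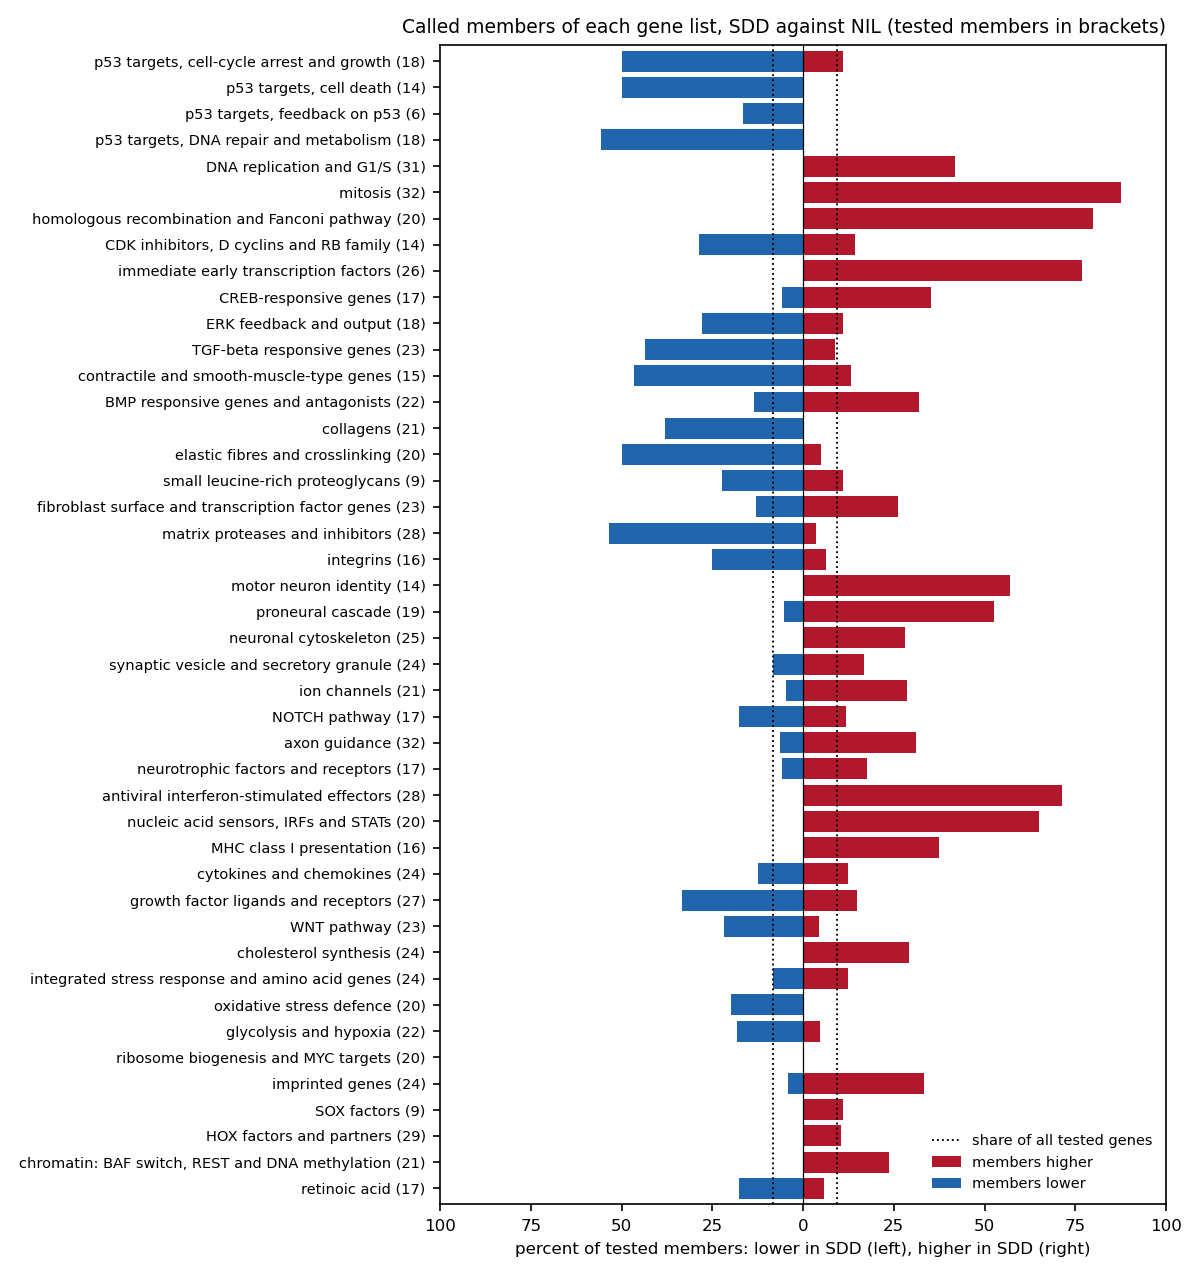
Percent of tested members of each of 44 gene lists that were called higher (right, red) or lower (left, blue) in SDD than in NIL; the dotted lines mark the 9.32% and 8.26% of all 14207 tested genes. Mitosis, homologous recombination, immediate early and antiviral interferon genes extend farthest to the right, and p53 targets, matrix proteases and elastic fibre genes to the left.

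Many p53 target genes were lower in SDD, and others of the same classes were not. Of 18 arrest and growth genes 9 fell and 2 rose (10 and 3 without NIL C), at a median log2 change of -0.62, against 8.26% and 9.32% of all tested genes and a median of 0.05. Cdkn1a, the p21 inhibitor of cyclin-dependent kinases, had 2346, 4120.3 and 3201 in SDD, against 17159, 18067 and 20227 in NIL (log2 change -2.55, SE 0.18, limma adjusted p = 3.72e-05). The groups were well apart and NIL C lay with the other NIL libraries. Phlda3, which restrains AKT at the membrane, had 785, 1059.8 and 867 in SDD, against 3909, 3622 and 7337 in NIL (log2 change -2.39, SE 0.26, limma adjusted p = 5.10e-04). Ccng1, cyclin G1, had 4696, 4787 and 4862 in SDD, against 18710.1, 21005 and 7867 in NIL (log2 change -1.61, SE 0.29, limma adjusted p = 0.00565), where NIL C was the lowest NIL library. Sesn2, a brake on mTORC1, had 849, 879.9 and 960.2 in SDD, against 1647, 1563 and 2640.1 in NIL (log2 change -1.08, SE 0.19, limma adjusted p = 0.00433). Sesn1 belongs to the same family and had a higher mean in SDD, with 831, 893 and 710.2 in SDD, against 575, 522 and 263 in NIL, passing narrowly without NIL C (limma adjusted p = 0.0498) and not with it (log2 change 0.91, SE 0.29, limma adjusted p = 0.0514). The G2 arrest protein Rprm had 165, 124 and 152 in SDD, against 392, 251 and 568 in NIL (log2 change -1.38, SE 0.35, limma adjusted p = 0.0237). Btg2, an antiproliferative gene that growth factors also induce, rose, with 11553, 8115 and 8069.9 in SDD, against 2693, 2255 and 1644 in NIL (log2 change 2.08, SE 0.21, limma adjusted p = 3.50e-04). Rprm lost its call without SDD A (limma adjusted p = 0.056), SDD B (limma adjusted p = 0.0826), SDD C (limma adjusted p = 0.0709) or NIL A (limma adjusted p = 0.0507). Ccng1 and Rprm did not pass with only the 6 SDD and NIL libraries fitted. Rprm did not pass with array weights.

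Of 14 cell death targets 7 fell and 0 rose (1 higher without SDD A), at a median of -0.69, and without NIL C 11 fell. Bax, which permeabilises mitochondria, had 1301, 1429 and 1364 in SDD, against 3271, 2982 and 5432 in NIL (log2 change -1.46, SE 0.19, limma adjusted p = 0.00127). The exonuclease Aen had 858, 1282 and 1081 in SDD, against 3236, 3258 and 4345 in NIL (log2 change -1.75, SE 0.17, limma adjusted p = 2.47e-04). The death receptor Tnfrsf10b had 313, 545 and 495 in SDD, against 1072, 1442 and 892 in NIL (log2 change -1.34, SE 0.22, limma adjusted p = 0.00386). Pidd1, the scaffold of caspase-2 activation, and Siva1 were 1.99- to 2.69-fold lower (limma adjusted p = 0.00607 and 0.0196). The BH3-only genes differed from these. Bbc3 (PUMA) had 139, 241 and 223 in SDD, against 242, 226 and 567 in NIL, with overlapping groups, and did not pass (log2 change -0.68, SE 0.34, limma adjusted p = 0.182). Pmaip1 (NOXA) had 404, 386 and 309.6 in SDD, against 693, 951 and 231 in NIL, and passed as lower without NIL C (log2 change -1.16, limma adjusted p = 0.00454, against 0.384 with all libraries). Siva1 lost its call without SDD A (limma adjusted p = 0.0726), SDD B (limma adjusted p = 0.0549) or SDD C (limma adjusted p = 0.0561). Pidd1 and Siva1 did not pass with only the 6 SDD and NIL libraries fitted.

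The feedback genes were split. Mdm2, the ubiquitin ligase that degrades p53, had 2160.4, 2570.2 and 2416 in SDD, against 5693, 6598 and 4450.3 in NIL (log2 change -1.21, SE 0.15, limma adjusted p = 8.48e-04). Ppm1d, the WIP1 phosphatase, had 817, 664 and 702 in SDD, against 705, 586 and 508 in NIL, with overlapping groups, and did not pass (log2 change 0.29, SE 0.15, limma adjusted p = 0.2). Of 6 tested feedback genes 1 fell, which was Mdm2, and 0 rose (1 higher without NIL A), and 2 were lower without NIL C. Of 18 repair and metabolism targets 10 fell and none rose, and 10 fell and 0 rose without NIL C, at a median of -0.93. The deepest after Pierce1 was Dcxr, a xylulose reductase, with 81.2, 95.7 and 66.96 in SDD, against 547, 544 and 774 in NIL (log2 change -2.91, SE 0.25, limma adjusted p = 1.52e-04). Mgmt, the methyltransferase that repairs alkylated guanine, had 60.9, 68.7 and 54.7 in SDD, against 278, 323 and 408 in NIL (log2 change -2.42, SE 0.22, limma adjusted p = 2.29e-04). The epoxide hydrolase Ephx1 had 752, 596 and 652 in SDD, against 2522, 2366 and 2453 in NIL (log2 change -1.88, SE 0.15, limma adjusted p = 6.90e-05). Aldh4a1 and the thiamine transporter Slc19a2 were 2.44- to 2.703-fold lower (limma adjusted p = 0.00154 and 4.23e-04). The nucleotide excision repair genes Ddb2 and Xpc and the ribonucleotide reductase subunit Rrm2b did not pass (limma adjusted p = 0.289, 0.102 and 0.828), and Ddb2, a strong target in human cells, was low throughout, with 58.6, 32.9 and 35.02 in SDD, against 39.1, 20.1 and 14.6 in NIL.

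**Figure D2:**
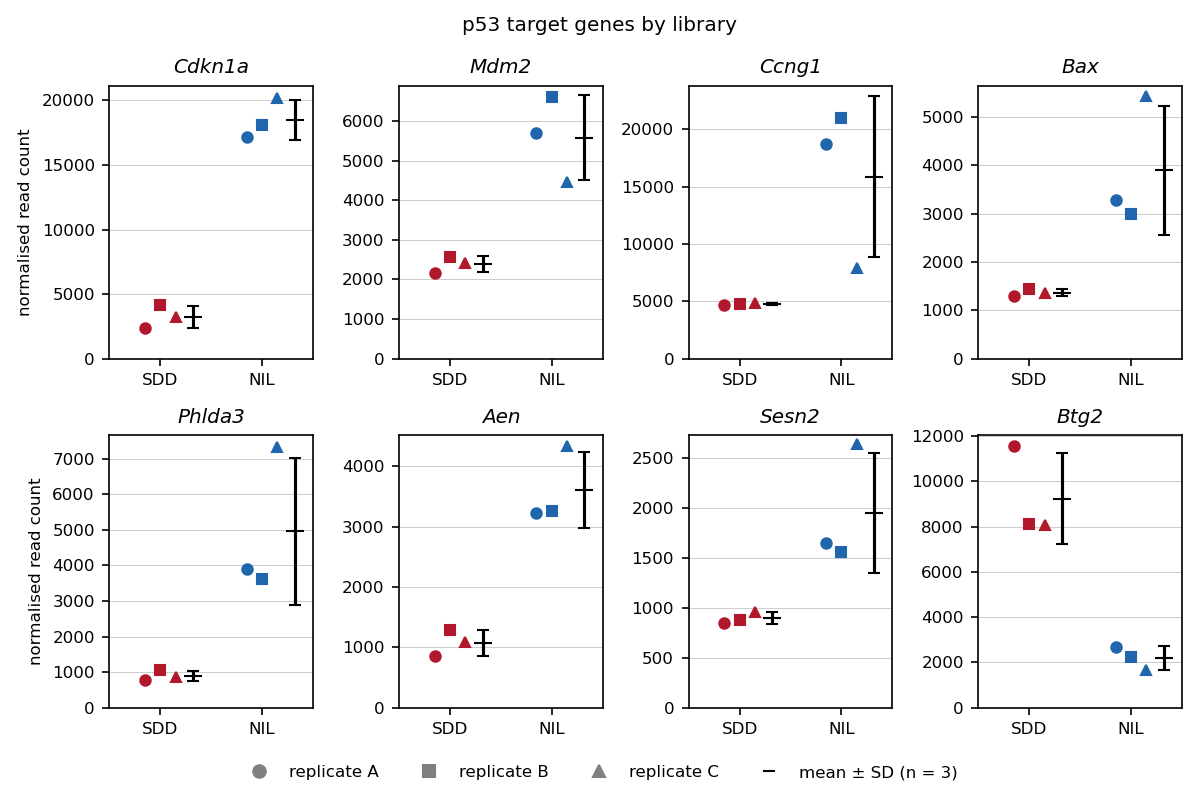
Normalised read counts of 8 p53 target genes in each SDD library (left, red) and NIL library (right, blue), with the mean ± SD of 3 libraries in black. In 7 genes all SDD libraries sit below all NIL libraries, and in Btg2 all sit above.

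Cell division genes rose as a group. Of 32 mitotic genes 28 were higher and none lower (32 without NIL C), at a median log2 change of 1.25. Mki67, the proliferation antigen of the chromosome surface, had 11146, 9407 and 11253 in SDD, against 5130.2, 3239 and 3878 in NIL (log2 change 1.40, SE 0.17, limma adjusted p = 8.53e-04). The mitotic kinase Cdk1 and its cyclin Ccnb1 were 2.04- to 2.45-fold higher (limma adjusted p = 0.00592 and 0.00416). Nusap1, a spindle protein, had 1328, 935 and 1168 in SDD, against 526, 313 and 193 in NIL (log2 change 1.83, SE 0.30, limma adjusted p = 0.0035). Kif11, the motor that separates the spindle poles, had 3106, 2169.9 and 2526 in SDD, against 1296, 687 and 643 in NIL (log2 change 1.63, SE 0.26, limma adjusted p = 0.00322). The kinetochore and spindle genes Kif20b, Cenpe, Cenpf and Nuf2 were 3.02- to 3.09-fold higher. In each of these genes the 3 SDD libraries lay above the 3 NIL libraries. Cdk1, Kif20b and Nuf2 did not pass with only the 6 SDD and NIL libraries fitted.

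Homologous recombination and Fanconi genes followed the mitotic genes, with 16 of 20 higher and none lower (19 without NIL C), at a median of 1.17. Brca1 had 1231, 1116 and 1257 in SDD, against 605, 496 and 409.6 in NIL (log2 change 1.27, SE 0.14, limma adjusted p = 6.05e-04). Fancd2, Rad54l, Rad54b, Blm and Brip1 were 2.51- to 3.11-fold higher. The replication list depended more on NIL C. With all libraries 13 of 31 passed as higher and none as lower (1 lower without NIL B), at a median of 0.54, and without NIL C 29 passed. Pcna, the sliding clamp, had 4579, 4746 and 5181 in SDD, against 3659.7, 2911 and 3223 in NIL (log2 change 0.57, SE 0.11, limma adjusted p = 0.00815). Mcm10, an initiation factor, had 833, 847 and 914 in SDD, against 404, 317 and 445 in NIL (log2 change 1.17, SE 0.14, limma adjusted p = 7.63e-04). Pola1, Prim1 and Gins1 were 1.89- to 2.301-fold higher. The helicase subunit Mcm2 had 2795, 3293 and 3618 in SDD, against 2836, 2172 and 5542 in NIL, with NIL C above all SDD libraries, and did not pass (log2 change -0.01, SE 0.28, limma adjusted p = 0.98). The G1/S cyclin Ccne1 had 1093, 1073 and 1088 in SDD, against 1444, 1061 and 1413 in NIL and did not pass (log2 change -0.25, SE 0.14, limma adjusted p = 0.221). Pcna, Pola1, Prim1 and Gins1 did not pass with only the 6 SDD and NIL libraries fitted. Pcna did not pass with GC correction.

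The D cyclins, which carry growth factor signals to the RB protein, went against the rest of the cell cycle. Ccnd1 had 9457, 18827 and 13696 in SDD, against 25936, 34978 and 34866 in NIL (log2 change -1.23, SE 0.23, limma adjusted p = 0.00578). Ccnd2 had 4792, 6995 and 5691 in SDD, against 14531, 17814 and 12036 in NIL (log2 change -1.34, SE 0.17, limma adjusted p = 8.67e-04). Ccnd3 differed least, with 2016, 2076 and 2067 in SDD, against 2716, 2450.2 and 3653 in NIL (log2 change -0.50, SE 0.15, limma adjusted p = 0.0407). Among the inhibitors of cyclin-dependent kinases Cdkn2b (p15), which TGF-beta induces in several cell types, fell, with 598, 776 and 611 in SDD, against 1333, 1592 and 1980.1 in NIL (log2 change -1.29, SE 0.17, limma adjusted p = 0.00113). Cdkn1b (p27) rose, with 902, 584 and 627 in SDD, against 352, 254 and 196 in NIL (log2 change 1.41, SE 0.24, limma adjusted p = 0.00433). So did Cdkn2c (p18), with 1867, 1396 and 1294 in SDD, against 697, 464 and 1074 in NIL (log2 change 1.09, SE 0.27, limma adjusted p = 0.0197). Cdkn2a, the locus of p16 and p19ARF, had 1682, 1912 and 1283 in SDD, against 1143, 1351 and 2075 in NIL, with overlapping groups (log2 change 0.12, SE 0.24, limma adjusted p = 0.747). Over the 14 tested inhibitors, D cyclins and RB family genes 2 rose and 4 fell (4 and 5 without NIL C, 1 higher without SDD A). Ccnd3 and Cdkn2c lost their calls without SDD A (limma adjusted p = 0.11 and 0.0809). Ccnd3 lost its call without SDD B (limma adjusted p = 0.0985), SDD C (limma adjusted p = 0.11) or NIL A (limma adjusted p = 0.0511). Ccnd1, Cdkn2c and Ccnd3 did not pass with only the 6 SDD and NIL libraries fitted. Ccnd3 did not pass with no filter, plain moderation (no trend, not robust), array weights or edgeR.

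Immediate early genes are switched on within minutes of a stimulus by factors already present in the cell, such as SRF and CREB, and need no new protein. Of 26 tested immediate early transcription factors 20 were higher and 0 lower (25 higher without NIL C), at a median log2 change of 1.39. Nr4a1 had 15997, 10847 and 10508 in SDD, against 248, 174 and 401 in NIL (log2 change 5.56, SE 0.29, limma adjusted p = 6.00e-06). Its relative Nr4a2 had 1390.3, 956 and 639.5 in SDD, against 134, 116 and 75.7 in NIL (log2 change 3.15, SE 0.33, limma adjusted p = 3.86e-04). The AP-1 subunit Fosb had 7439, 3469 and 4436 in SDD, against 146, 127 and 192 in NIL (log2 change 4.98, SE 0.26, limma adjusted p = 6.00e-06). Fos had 8298, 4212 and 5472 in SDD, against 1152, 785 and 1187 in NIL (log2 change 2.49, SE 0.24, limma adjusted p = 2.82e-04). Atf3, a stress-induced bZIP factor, had 3771, 2803 and 3087 in SDD, against 217, 289.8 and 338 in NIL (log2 change 3.52, SE 0.19, limma adjusted p = 6.18e-06). The EGR family was uneven. Egr4 had 182, 153 and 112 in SDD, against 6.51, 5.57 and 0 in NIL (log2 change 5.33, SE 0.64, limma adjusted p = 7.80e-04), close to the limit of detection in NIL, whereas Egr1 was high in both groups, with 30219, 31525 and 35843 in SDD, against 17716, 14688 and 21158 in NIL (log2 change 0.88, SE 0.14, limma adjusted p = 0.00346). In Nr4a1, Nr4a3, Fosb and Fos, SDD A was the highest library.

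The upstream windows of 4 of the genes with large rises are shown because they hold a motif that CREB-family factors bind. Windows are the 250 bases before the RefSeq start in GRCm38.p6, 5′ to 3′ on the gene's strand, with each TGACG, or CGTCA on the other strand, in capitals. They lie at chr4:48045055-48045304 on the plus strand (Nr4a3), chr15:101266596-101266845 on the plus strand (Nr4a1), chr7:19310046-19310295 on the minus strand (Fosb) and chr17:26508473-26508722 on the minus strand (Dusp1, the phosphatase that switches off MAP kinases).
Nr4a3: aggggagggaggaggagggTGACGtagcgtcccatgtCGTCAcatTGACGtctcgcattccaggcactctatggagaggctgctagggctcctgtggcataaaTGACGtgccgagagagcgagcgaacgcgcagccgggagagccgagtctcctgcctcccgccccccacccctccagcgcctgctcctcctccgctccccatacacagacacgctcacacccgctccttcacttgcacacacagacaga
Nr4a1: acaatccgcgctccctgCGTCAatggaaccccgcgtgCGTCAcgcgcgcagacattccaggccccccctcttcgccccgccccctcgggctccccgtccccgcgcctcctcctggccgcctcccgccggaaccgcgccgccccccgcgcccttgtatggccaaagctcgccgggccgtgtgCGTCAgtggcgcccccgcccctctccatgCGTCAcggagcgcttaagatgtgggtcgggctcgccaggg
Fosb: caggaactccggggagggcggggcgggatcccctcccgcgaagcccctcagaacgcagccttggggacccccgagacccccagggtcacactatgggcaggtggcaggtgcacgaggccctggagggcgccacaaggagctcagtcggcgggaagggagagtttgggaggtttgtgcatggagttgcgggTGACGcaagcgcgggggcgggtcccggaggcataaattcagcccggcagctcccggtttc
Dusp1: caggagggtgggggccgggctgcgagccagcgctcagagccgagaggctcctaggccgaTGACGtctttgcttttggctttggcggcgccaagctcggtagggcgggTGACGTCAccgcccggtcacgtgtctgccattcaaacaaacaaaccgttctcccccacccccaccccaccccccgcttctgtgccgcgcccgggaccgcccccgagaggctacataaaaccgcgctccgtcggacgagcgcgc
Nr4a3 and Nr4a1 each held 4 matches, Dusp1 3 and Fosb 1. In Dusp1 a pair of matches overlaps to form the full palindrome TGACGTCA. The match nearest the start began 147 bases before it in Nr4a3, 40 in Nr4a1, 60 in Fosb and 140 in Dusp1. A window was listed for 20 of the 26 tested immediate early genes and 12 of these (60.0%) held TGACG on either strand, against 26.6% of 10692 tested genes with a window and 17.8% of all 32851 windows. Among the 16 that rose and had a window 11 did (68.8%). The full TGACGTCA was in none of the 20 and in 2.68% of the tested genes. These are matches of letters, and no binding was measured.

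**Figure D3:**
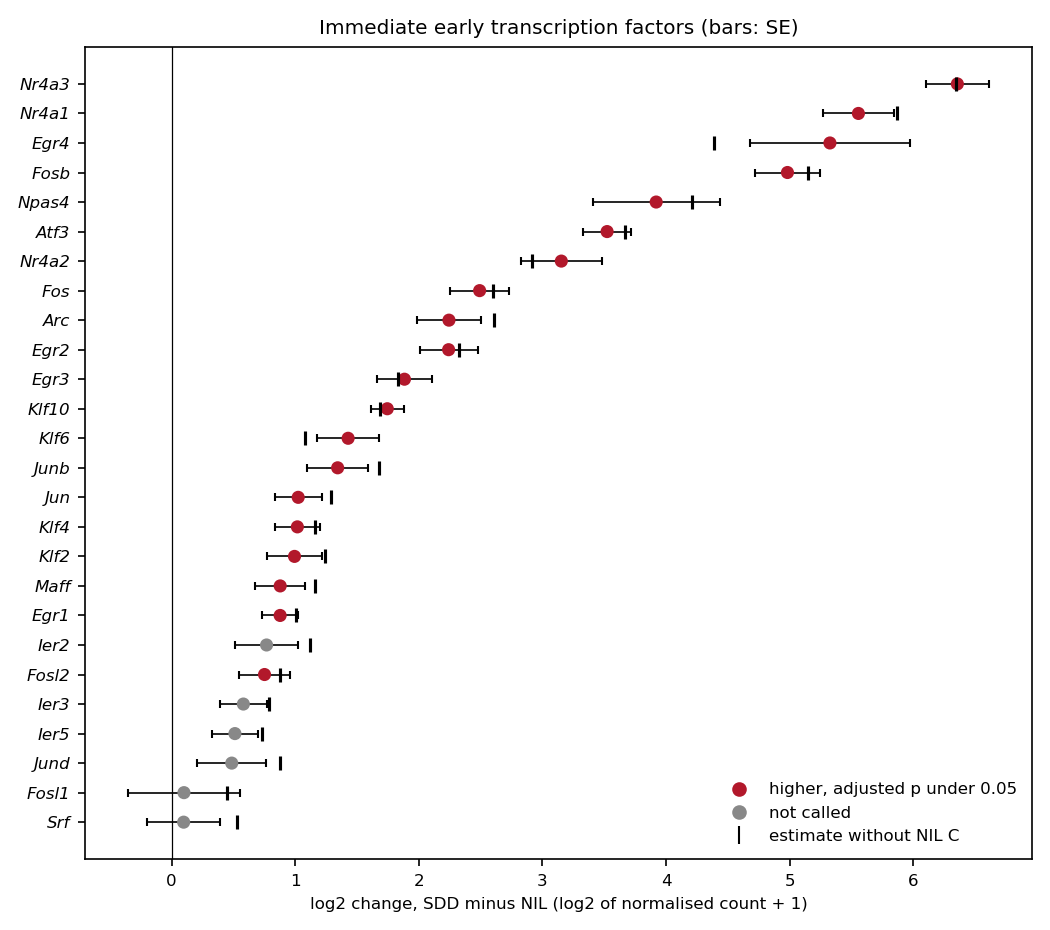
Log2 change in SDD against NIL of the 26 tested immediate early transcription factors (points, with SE bars; red, called higher; grey, not called) and the estimate without NIL C (vertical ticks). Nr4a3, Nr4a1, Egr4 and Fosb lie farthest to the right.

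Genes that respond to CREB followed in part. Of 17 tested 6 rose and 1 fell (8 and 1 without NIL C, 0 lower without SDD C), at a median of 0.66. Dusp1 had 10215, 6874 and 6297 in SDD, against 682, 742 and 864 in NIL (log2 change 3.33, SE 0.20, limma adjusted p = 9.93e-06). Gem, a small GTPase that damps calcium channels, had 587, 874 and 846 in SDD, against 143, 177 and 192 in NIL (log2 change 2.15, SE 0.20, limma adjusted p = 2.47e-04). The bZIP repressor Nfil3 had 1692, 1494 and 1551 in SDD, against 339, 328 and 413 in NIL (log2 change 2.13, SE 0.15, limma adjusted p = 3.77e-05). The kinase Sik1 had 1225, 1214 and 967 in SDD, against 315, 365 and 685 in NIL (log2 change 1.39, SE 0.26, limma adjusted p = 0.0063). Crem, whose ICER form is a textbook CREB target, had 213, 278 and 222 in SDD, against 227, 237 and 113 in NIL and did not pass (log2 change 0.37, SE 0.27, limma adjusted p = 0.356). The feedback genes of the ERK pathway did not share the rise. Dusp6, the ERK phosphatase, had 3765, 3816 and 3229.6 in SDD, against 3714, 3632 and 3824 in NIL (log2 change -0.05, SE 0.11, limma adjusted p = 0.771). The Sprouty gene Spry4 had 1108, 1204 and 875 in SDD, against 1101, 1435 and 1010.4 in NIL (log2 change -0.15, SE 0.16, limma adjusted p = 0.524), both with overlapping groups. The ETS factor Etv4 fell, with 406, 557 and 466 in SDD, against 872, 813 and 1072 in NIL (log2 change -0.95, SE 0.15, limma adjusted p = 0.00255), as did Spred3, an inhibitor of RAS to RAF signalling (1.93- to 2.09-fold lower for the pair). Etv1, another ETS factor, had 1460, 1051 and 990 in SDD, against 674, 693 and 299.9 in NIL. Myc had 2946, 4055 and 4367 in SDD, against 1414, 1485 and 3088 in NIL, with overlapping groups. Etv1 and Myc rose (limma adjusted p = 0.0224 and 0.0298), also without NIL C (limma adjusted p = 0.00395 and 1.82e-04). In all 2 of 18 ERK feedback and output genes rose and 5 fell (1 higher without NIL A, SDD A or SDD C, 0 higher without SDD B, 3 lower without NIL B or SDD A and 2 lower without SDD C), and 3 and 3 without NIL C, at a median of -0.15. Sik1 did not pass with only the 6 SDD and NIL libraries fitted.

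Genes that TGF-beta induces fell in part. Of 23 tested 10 fell and 2 rose (12 and 4 without NIL C, 1 higher without SDD A or SDD B), at a median log2 change of -0.55. Pmepa1, a SMAD-induced inhibitor of the pathway, had 786, 1080.1 and 922 in SDD, against 2663, 3865 and 3411 in NIL (log2 change -1.83, SE 0.18, limma adjusted p = 2.87e-04). Its relative Ldlrad4 had 126, 98.6 and 116 in SDD, against 416, 414 and 545 in NIL (log2 change -1.996, SE 0.31, limma adjusted p = 0.00273). Lrrc15 had 33.8, 34.8 and 28.3 in SDD, against 312, 386 and 192 in NIL (log2 change -3.11, SE 0.30, limma adjusted p = 2.58e-04). Ltbp2, a latent TGF-beta binding protein, had 1789, 2082 and 1743 in SDD, against 4951, 5392 and 9378 in NIL (log2 change -1.76, SE 0.24, limma adjusted p = 0.00135). The collagen receptor subunit Itga11 was 2.91-fold lower (limma adjusted p = 0.00579). Ccn2 (CTGF) had 2793, 2749 and 1992 in SDD, against 2721, 3294 and 4618 in NIL and did not pass (log2 change -0.48, SE 0.26, limma adjusted p = 0.226). Ccn1 (CYR61), a matricellular gene that serum and YAP also induce, rose, with 50559, 44824 and 49536 in SDD, against 17257, 14242 and 21074 in NIL (log2 change 1.48, SE 0.17, limma adjusted p = 5.93e-04).

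Contractile genes of smooth-muscle type were lower in part. Of 15 tested 7 fell and 2 rose (6 and 2 without NIL C, 1 higher without SDD A or SDD C and 0 higher without SDD B), at a median of -1.05. Tagln (SM22) had 1569.6, 1699.9 and 1533 in SDD, against 6468, 5634 and 12853 in NIL (log2 change -2.28, SE 0.39, limma adjusted p = 0.00433). The tropomyosin Tpm1 had 5559, 7617 and 7535 in SDD, against 13581, 17066 and 16767 in NIL (log2 change -1.20, SE 0.16, limma adjusted p = 0.0012). Acta2, smooth muscle actin, had 3039.9, 2476 and 2309 in SDD, against 5484, 3957 and 9105 in NIL (log2 change -1.17, SE 0.32, limma adjusted p = 0.0319), with NIL C the highest library. Cnn1 (calponin) was low in both groups, with 65.4, 50.3 and 19.04 in SDD, against 53.7, 51.3 and 24.3 in NIL (log2 change -0.03, SE 0.66, limma adjusted p = 0.981). Tpm2 and Actn1 were 2.08- to 2.49-fold lower (limma adjusted p = 0.00909 and 0.0172). Acta2 and Actn1 lost their calls without SDD A (limma adjusted p = 0.0635 and 0.0697). Acta2 lost its call without SDD B (limma adjusted p = 0.0912), SDD C (limma adjusted p = 0.11), NIL A (limma adjusted p = 0.0527) or NIL C (limma adjusted p = 0.0605). Acta2, Tpm2 and Actn1 did not pass with only the 6 SDD and NIL libraries fitted. Tagln and Acta2 did not pass with array weights.

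Among the targets of BMP, which signals through other type I receptors than TGF-beta in most cells, all 4 ID genes rose. They encode proteins that keep bHLH factors off DNA. Id1 had 4662, 3707 and 2641 in SDD, against 254, 289 and 578 in NIL (log2 change 3.35, SE 0.30, limma adjusted p = 1.59e-04). Id3 had 4883, 3149 and 2612 in SDD, against 346, 293 and 669 in NIL (log2 change 3.07, SE 0.30, limma adjusted p = 3.06e-04). Id2 had 6299.7, 4196 and 4367 in SDD, against 2682, 2813 and 3349 in NIL (log2 change 0.73, SE 0.16, limma adjusted p = 0.013). Id4 had 207, 115 and 111 in SDD, against 43.9, 30.1 and 33.97 in NIL (log2 change 1.93, SE 0.30, limma adjusted p = 0.0025). In all 4 genes SDD A was highest and the groups did not overlap. The bHLH gene Atoh8 had 1282, 1200.01 and 993 in SDD, against 381, 307 and 639 in NIL (log2 change 1.45, SE 0.33, limma adjusted p = 0.014). The BMP antagonist Nog had 282, 161 and 198 in SDD, against 49.6, 21.2 and 95.1 in NIL (log2 change 2.13, SE 0.56, limma adjusted p = 0.0271). Acvrl1, a type I receptor for BMP9 best known in endothelium, fell, with 116, 132 and 151 in SDD, against 354, 417 and 525 in NIL (log2 change -1.68, SE 0.23, limma adjusted p = 0.00141). In all 7 of 22 rose and 3 fell (4 higher without SDD A), and 7 and 3 without NIL C, at a median of 0.19. Atoh8 and Nog lost their calls without SDD A (limma adjusted p = 0.056 and 0.101). Nog lost its call without SDD B (limma adjusted p = 0.0574), SDD C (limma adjusted p = 0.0827) or NIL B (limma adjusted p = 0.058). Id2 and Nog did not pass with only the 6 SDD and NIL libraries fitted. Id2 did not pass with GC correction.

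Many accessory genes of the fibroblast's extracellular matrix fell, while its main fibrillar collagens did not pass. Of 20 elastic fibre and crosslinking genes 10 fell and 1 rose, at a median of -0.74 (10 and 1 without NIL C). Lox, the lysyl oxidase that crosslinks collagen and elastin, had 9131, 7263 and 7021 in SDD, against 21301, 21792 and 22036 in NIL (log2 change -1.49, SE 0.14, limma adjusted p = 2.73e-04). The related enzymes Loxl2 and Loxl4 were 2.19- to 2.89-fold lower, and fibulin-2 (Fbln2) had 12916, 11559 and 12695 in SDD, against 26932, 26928 and 50618 in NIL (log2 change -1.43, SE 0.21, limma adjusted p = 0.00219). Fibrillin-1 (Fbn1) had 11762, 9995 and 10509 in SDD, against 15777, 16993 and 20414 in NIL (log2 change -0.72, SE 0.12, limma adjusted p = 0.0036). Mfap5, a microfibril protein, had 64.3, 37.7 and 43.004 in SDD, against 173, 182 and 233 in NIL (log2 change -2.02, SE 0.36, limma adjusted p = 0.0048). Elastin (Eln) had 1714, 859 and 1251 in SDD, against 2326, 1509 and 3646 in NIL and did not pass (log2 change -0.93, SE 0.31, limma adjusted p = 0.0644). Fbn1 did not pass with only the 6 SDD and NIL libraries fitted.

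Of 21 collagen genes 8 fell and 0 rose (5 lower without SDD B and 4 lower without SDD C), and 6 fell and 2 rose without NIL C, at a median of -0.61. The fibrillar Col1a1 had 156762, 120214 and 141643 in SDD, against 180322, 162151 and 368794 in NIL, with every SDD library below every NIL library, and did not pass (log2 change -0.67, SE 0.26, limma adjusted p = 0.0978). Col3a1 likewise did not pass (140438, 112678 and 123585 in SDD, against 142422, 156481 and 217224 in NIL; log2 change -0.44, SE 0.16, limma adjusted p = 0.0903). Col5a1, which nucleates collagen fibrils, fell, with 29326, 25161 and 26189 in SDD, against 52807, 52558 and 91212 in NIL (log2 change -1.24, SE 0.19, limma adjusted p = 0.0025). Col7a1, the anchoring fibril collagen, had 355, 319 and 205 in SDD, against 739, 951 and 737 in NIL (log2 change -1.49, SE 0.26, limma adjusted p = 0.00471). The basement membrane chains Col4a1 and Col4a2, which share a promoter, were 1.76- to 1.97-fold lower (limma adjusted p = 0.0203 and 0.0123). Col4a1 lost its call without SDD B (limma adjusted p = 0.0583). Col4a1 and Col4a2 lost their calls without SDD C (limma adjusted p = 0.0855 and 0.0579). Col4a1 and Col4a2 did not pass with only the 6 SDD and NIL libraries fitted.

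Among 28 proteases and inhibitors 15 fell and 1 rose (9 lower without SDD C), and 15 and 1 without NIL C, at a median of -0.71. Timp1, the tissue inhibitor of metalloproteinases, had 1851, 2875 and 2399 in SDD, against 10867, 16134 and 12936 in NIL (log2 change -2.49, SE 0.21, limma adjusted p = 1.16e-04). Plau, urokinase, had 304, 386 and 348 in SDD, against 872, 1641 and 696 in NIL (log2 change -1.53, SE 0.26, limma adjusted p = 0.00431). Stromelysin (Mmp3) had 803, 1789.9 and 1049 in SDD, against 3150.2, 10606 and 2126 in NIL (log2 change -1.85, SE 0.50, limma adjusted p = 0.0298), with NIL B far above NIL A and C. Enzymes and their inhibitors fell side by side. The proteoglycan Bgn (biglycan) had 23494, 23452 and 23510.04 in SDD, against 39884, 42385 and 47219.9 in NIL (log2 change -0.87, SE 0.10, limma adjusted p = 6.05e-04). Dcn (decorin) and Lum (lumican) did not pass (limma adjusted p = 0.327 and 0.862). Kera (keratocan) rose, with 3056, 1339 and 2266 in SDD, against 469.6, 353 and 109 in NIL (log2 change 2.996, SE 0.58, limma adjusted p = 0.00683). Of 9 small leucine-rich proteoglycans 1 rose and 2 fell (1 lower without SDD B or SDD C), and 4 fell without NIL C. Mmp3 lost its call without SDD A (limma adjusted p = 0.112) or SDD C (limma adjusted p = 0.0963). Mmp3 did not pass with only the 6 SDD and NIL libraries fitted.

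Of 16 integrin genes 4 fell and 1 rose (2 higher without NIL A or NIL B and 0 higher without SDD A, SDD B or SDD C), and 7 and 3 without NIL C. Itgb3 had 118, 195 and 151 in SDD, against 414, 679.998 and 390.2 in NIL (log2 change -1.65, SE 0.23, limma adjusted p = 0.00156). Itgb5 had 1821, 1739.6 and 1619 in SDD, against 3844, 3916 and 5548 in NIL (log2 change -1.34, SE 0.15, limma adjusted p = 5.96e-04), both beta partners of the alpha-v subunit. Itgav itself had 4853, 5389.9 and 5412 in SDD, against 6514, 8144 and 4845 in NIL. Itgb1 had 31351, 28847 and 27778 in SDD, against 40303, 42317 and 16658 in NIL. They passed as lower without NIL C (limma adjusted p = 0.008 and 0.00201, against 0.26 and 0.902). Itga5, the fibronectin receptor, had 3188, 4052 and 3553 in SDD, against 4237, 5363 and 6142 in NIL (log2 change -0.53, SE 0.15, limma adjusted p = 0.0353). Fibroblast identity genes moved both ways, with 6 of 23 higher and 3 lower (3 higher without SDD A and 2 higher without SDD C), and 8 and 3 without NIL C, at a median of 0.20. Pdgfra, the mesenchymal PDGF receptor, rose, with 7316, 6047 and 7325 in SDD, against 3682, 3048 and 3541 in NIL (log2 change 1.01, SE 0.15, limma adjusted p = 0.00217). The mesenchymal homeobox gene Prrx1 was 1.77-fold higher (limma adjusted p = 0.0149). Vimentin (Vim) fell, with 38681, 39982 and 43114 in SDD, against 64617, 65025 and 117074 in NIL (log2 change -0.96, SE 0.20, limma adjusted p = 0.0103), as did dermatopontin (Dpt; log2 change -1.62, SE 0.32, limma adjusted p = 0.00735). Thy1 and Twist1 had overlapping groups and did not pass (limma adjusted p = 0.666 and 0.995). Itga5 and Prrx1 lost their calls without SDD A (limma adjusted p = 0.121 and 0.0551) or SDD C (limma adjusted p = 0.104 and 0.0554). Itga5 lost its call without NIL B (limma adjusted p = 0.0635). Itga5, Prrx1 and Vim did not pass with only the 6 SDD and NIL libraries fitted. Itga5 did not pass with no filter, plain moderation (no trend, not robust), array weights, only the SDD and NIL libraries fitted and NIL C left out, edgeR or GC correction.

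Motor neuron genes were measured in bulk at day 4. Mnx1, the gene behind the reporter, had 127, 64.8 and 90.3 in SDD, against 15.5, 7.803 and 31.1 in NIL, so that all SDD libraries were above all NIL libraries (log2 change 2.46, SE 0.63, limma adjusted p = 0.0249). Isl2, a LIM-homeodomain gene of motor neurons, was low, with 22.6, 23.2 and 11.7 in SDD, against 4.07, 8.92 and 2.91 in NIL (log2 change 1.73, SE 0.53, limma adjusted p = 0.0463). Chat, the enzyme that makes acetylcholine, was listed at 0 in all 6 libraries. Prph (peripherin) had 1182, 611 and 602 in SDD, against 282, 183 and 389 in NIL (log2 change 1.48, SE 0.38, limma adjusted p = 0.0255). Gfra1, a GDNF receptor that was already abundant, had 34207, 25538 and 22368 in SDD, against 14822, 12581 and 10916 in NIL (log2 change 1.09, SE 0.17, limma adjusted p = 0.003). The transcription factor Ebf1 had 2224, 1966 and 2035 in SDD, against 779, 864 and 668 in NIL (log2 change 1.43, SE 0.14, limma adjusted p = 2.73e-04). Rgs4, a regulator of G-protein signalling, had 563, 412 and 528 in SDD, against 279, 147 and 85.4 in NIL (log2 change 1.70, SE 0.35, limma adjusted p = 0.0098). Of 14 tested motor neuron genes 8 rose and 0 fell (3 higher without SDD A and 4 higher without SDD C), and 6 rose without NIL C, at a median of 0.98. The other 6 of the 20 listed, Chat, Slc18a3, Ache, Lhx4, Onecut1 and Olig2, were under the filter and not tested. Mnx1, Isl2 and Prph lost their calls without SDD A (limma adjusted p = 0.0929 to 0.134) or SDD C (limma adjusted p = 0.0533 to 0.0789). Isl2 lost its call without SDD B (limma adjusted p = 0.142), NIL A (limma adjusted p = 0.0866) or NIL C (limma adjusted p = 0.0761). Mnx1 and Prph lost their calls without NIL B (limma adjusted p = 0.0567 and 0.0594). Mnx1, Prph, Rgs4 and Isl2 did not pass with only the 6 SDD and NIL libraries fitted. Isl2 did not pass with upper-quartile scaling, quantile scaling, a pseudocount of 0.5, no filter, array weights, only the SDD and NIL libraries fitted and NIL C left out, edgeR or DESeq2.

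The proneural cascade that Neurog2 starts was higher in most of its called members, while the delivered Neurog2 row was not. Neurod1 had 101, 66.7 and 62.05 in SDD, against 13.02, 12.3 and 14.6 in NIL (log2 change 2.41, SE 0.52, limma adjusted p = 0.0114). Nhlh1, a bHLH target of the neurogenins, had 359, 221 and 203 in SDD, against 39.9, 71.3 and 22.3 in NIL (log2 change 2.63, SE 0.53, limma adjusted p = 0.00842). Prox1, a homeobox gene of early neurons, had 449.9, 287 and 324 in SDD, against 90.3, 92.5 and 21.4 in NIL (log2 change 2.60, SE 0.49, limma adjusted p = 0.00656). St18, a zinc finger gene of neuronal differentiation, had 722, 384 and 441 in SDD, against 149, 133 and 94.2 in NIL (log2 change 2.004, SE 0.36, limma adjusted p = 0.00506). Insm1 and Gadd45g were 2.89- to 3.001-fold higher. Hes6, a bHLH partner that opposes Hes1, fell, with 583, 604 and 432 in SDD, against 1211, 1205 and 2059.7 in NIL (log2 change -1.43, SE 0.32, limma adjusted p = 0.0128). Neurod4 was barely detected, with 2.26, 3.87 and 3.69 in SDD, against 0, 0 and 0 in NIL, and was not tested. In all 10 of 19 rose and 1 fell (13 and 1 without NIL C, 0 lower without SDD C), at a median of 0.75. Of the 27 listed 8 were not tested, Neurod4 among them. Hes6 lost its call without SDD C (limma adjusted p = 0.0591). Prox1 did not pass with only the 6 SDD and NIL libraries fitted. Neurod1, Nhlh1, Insm1 and Hes6 did not pass with array weights.

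Of 25 neuronal cytoskeleton genes 7 rose and 0 fell (1 lower without NIL B), and 10 rose and 0 fell without NIL C, at a median of 0.59. The neurofilament subunits moved together. Nefl had 5325, 1879 and 2677 in SDD, against 900.1, 387 and 1172 in NIL (log2 change 2.01, SE 0.43, limma adjusted p = 0.0109). Nefm had 2540.4, 975 and 1293 in SDD, against 462, 247 and 463 in NIL (log2 change 1.97, SE 0.33, limma adjusted p = 0.00392). Alpha-internexin (Ina) had 739, 349 and 335 in SDD, against 114, 105 and 113 in NIL (log2 change 1.99, SE 0.39, limma adjusted p = 0.00748). SDD A was the highest library in all 3. Map2, the dendritic microtubule protein, had 979, 602 and 765 in SDD, against 313, 264 and 233 in NIL (log2 change 1.51, SE 0.20, limma adjusted p = 0.00112). Stathmin (Stmn1) had 4208, 3265 and 3676 in SDD, against 1827, 1024 and 1629.7 in NIL (log2 change 1.35, SE 0.20, limma adjusted p = 0.00217). The beta-III tubulin Tubb3 had 3863, 2791 and 2923 in SDD, against 2087, 1349 and 3359 in NIL, with NIL C inside the range of SDD, and passed without it (limma adjusted p = 0.0299, against 0.216). Doublecortin (Dcx) had 1062, 872 and 644 in SDD, against 314, 347 and 78.6 in NIL, with no overlap between groups, and did not pass (limma adjusted p = 0.112 and, without NIL C, 0.286). Nefl did not pass with only the 6 SDD and NIL libraries fitted. Ina did not pass with array weights.

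**Figure D4:**
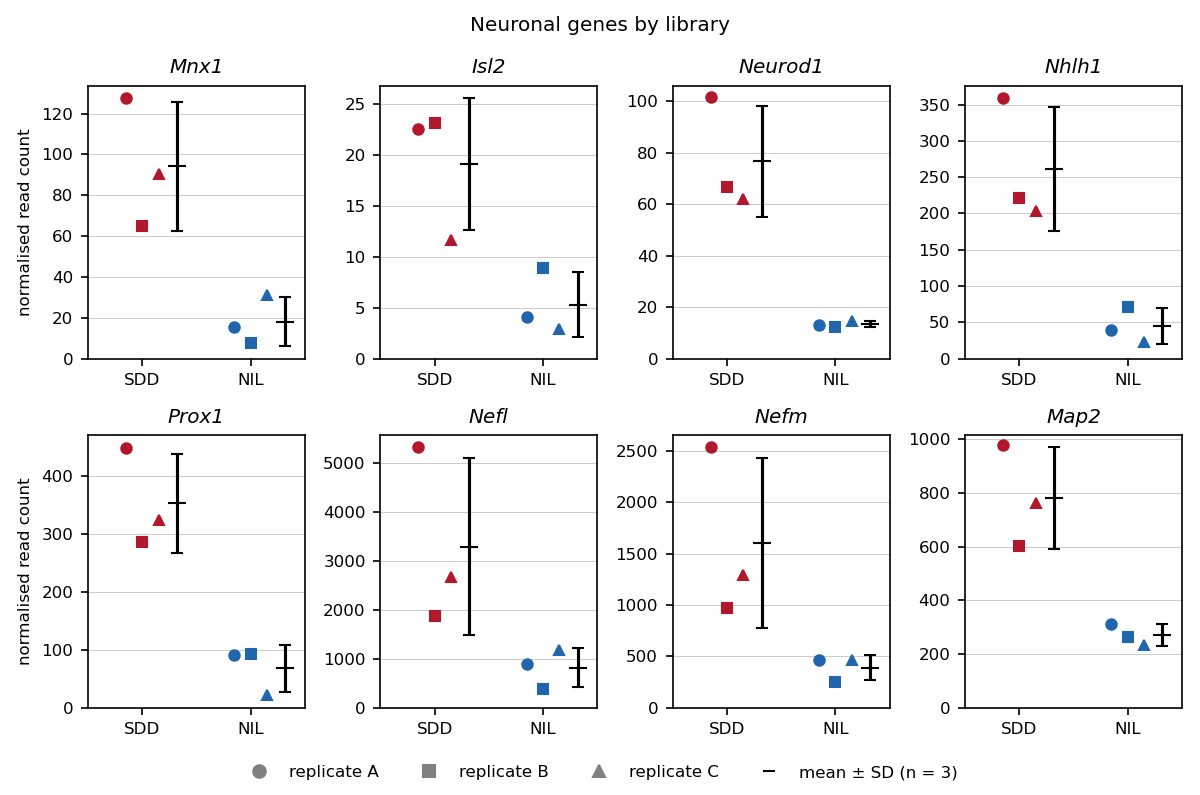
Normalised read counts of 8 neuronal genes in each SDD library (left, red) and NIL library (right, blue), with the mean ± SD of 3 libraries in black. All SDD libraries sit above all NIL libraries in each gene, and SDD A is the highest library in all but Isl2.

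Genes of mature neuronal function were less uniform. Of 24 synaptic genes 4 rose and 2 fell, and 4 and 2 without NIL C, with 2 higher without SDD A, SDD B or SDD C and 0 lower without SDD A, SDD B or SDD C. The shares of all tested genes were 9.32% higher and 8.26% lower, and 15.2% and 13.9% without NIL C. Syt1, the calcium sensor of vesicle release, had 499.5, 520.2 and 439 in SDD, against 242, 231 and 134 in NIL (log2 change 1.31, SE 0.21, limma adjusted p = 0.003). Snap25 had 59.8, 22.2 and 25.2 in SDD, against 11.4, 11.1 and 0 in NIL and passed without NIL C (limma adjusted p = 0.0158) but not with it (log2 change 2.65, SE 0.83, limma adjusted p = 0.0514). Syn1 (synapsin I) was lower, with 100.4, 108 and 88.5 in SDD, against 154, 158 and 271 in NIL (log2 change -0.92, SE 0.27, limma adjusted p = 0.0424). Of 21 ion channel genes 6 rose and 1 fell (1 higher without SDD A and 3 higher without SDD B or SDD C), and 5 and 1 without NIL C. Scn2a and Cacna1a did not pass (limma adjusted p = 0.653 and 0.175). Syn1 lost its call without SDD A (limma adjusted p = 0.103), SDD B (limma adjusted p = 0.0827), SDD C (limma adjusted p = 0.137) or NIL C (limma adjusted p = 0.0541). Syn1 did not pass with only the 6 SDD and NIL libraries fitted. Syn1 did not pass with no filter, plain moderation (no trend, not robust), array weights, only the SDD and NIL libraries fitted and NIL C left out or the replicate block.

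Of 32 axon guidance genes 10 rose and 2 fell (4 higher without SDD A, 5 higher without SDD C, 1 lower without NIL B or SDD A and 0 lower without SDD C), and 10 and 3 without NIL C, at a median of 0.46. Nrp2, a semaphorin receptor, had 14065, 8169.9 and 10475 in SDD, against 3263, 3004 and 3649 in NIL (log2 change 1.69, SE 0.24, limma adjusted p = 0.00165). The adhesion molecule Chl1 had 2304, 1537 and 1449 in SDD, against 729.98, 532 and 269 in NIL (log2 change 1.87, SE 0.34, limma adjusted p = 0.00547). The ephrin receptor Epha5 had 1978, 1193 and 1070.2 in SDD, against 644, 569.6 and 332 in NIL (log2 change 1.46, SE 0.30, limma adjusted p = 0.00893). Epha4 overlapped between groups and did not pass (limma adjusted p = 0.915), nor did the slit receptor Robo2 (limma adjusted p = 0.052). Ngfr, the low-affinity neurotrophin receptor, fell, with 40.6, 61.9 and 29.5 in SDD, against 177, 178 and 162 in NIL (log2 change -2.01, SE 0.39, limma adjusted p = 0.00704). Schwann and neural crest markers, of which Ngfr is one, fell in 5 of 8 tested and rose in none (2 lower without NIL A or SDD C and 3 lower without NIL B, SDD A or SDD B), and 7 fell without NIL C. Their summed value was 98.9 to 183 in the SDD libraries and 365 to 581 in the NIL libraries. Sox10, the defining factor of that lineage, had 22.6, 26.1 and 6.14 in SDD, against 72.4, 94.8 and 57.3 in NIL and did not pass (log2 change -2.16, SE 0.74, limma adjusted p = 0.0676). Epha5 did not pass with only the 6 SDD and NIL libraries fitted.

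In the NOTCH pathway, which holds progenitors back from neuronal differentiation, Notch3 fell, with 188, 255 and 157 in SDD, against 684, 793 and 935 in NIL (log2 change -2.02, SE 0.23, limma adjusted p = 5.93e-04). Notch2 had 2245, 2379 and 2657 in SDD, against 3591, 3654 and 6464 in NIL (log2 change -0.86, SE 0.20, limma adjusted p = 0.0165). Notch1 overlapped between groups (log2 change -0.14, SE 0.23, limma adjusted p = 0.704). The ligand Dll1 and the target Hes1 had higher means in SDD and did not pass (limma adjusted p = 0.0767 and 0.109), and Hes1 passed as higher without NIL C (limma adjusted p = 0.029). In all 2 of 17 rose, the ligand Dll4 and the target Hey1, and 3 fell (1 higher without SDD B and 1 lower without SDD A), and 4 and 3 without NIL C. Among all tested genes 9.32% rose and 8.26% fell, and 15.2% and 13.9% without NIL C. Notch2 lost its call without SDD A (limma adjusted p = 0.0634) or SDD B (limma adjusted p = 0.0543). Notch2 did not pass with only the 6 SDD and NIL libraries fitted.

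Interferon-stimulated genes are induced through a short promoter sequence, the interferon-stimulated response element. Of 28 tested antiviral effectors 20 were higher and 0 lower (17 higher without NIL C), at a median log2 change of 2.11. Other libraries mattered too, with 11 higher without NIL A and 9 higher without SDD B or SDD C. Rsad2 (viperin) had 3905, 8634 and 7144 in SDD, against 538, 1376 and 383 in NIL (log2 change 3.24, SE 0.61, limma adjusted p = 0.00602). Ifit1, which binds viral RNA caps, had 7190.5, 12615 and 11648 in SDD, against 1427, 2808 and 1310.3 in NIL (log2 change 2.55, SE 0.45, limma adjusted p = 0.0049). The dynamin-like GTPases Mx1 and Mx2 were 6.46- to 6.76-fold higher, and Mx1 had 487, 1497 and 1168 in SDD, against 90.3, 195 and 153 in NIL (log2 change 2.76, SE 0.49, limma adjusted p = 0.00493). Isg15, the ubiquitin-like modifier, had 3029.8, 5945 and 5536 in SDD, against 711, 1497 and 2367 in NIL and passed narrowly without NIL C (limma adjusted p = 0.0499) but not with it (log2 change 1.77, SE 0.61, limma adjusted p = 0.0688). In all of these genes SDD A was the lowest SDD library, and it was still above every NIL library. Rsad2 and Ifit1 did not pass with array weights.

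The windows of Rsad2 (chr12:26456453-26456702, minus strand) and Ifit1 (chr19:34640639-34640888, plus strand) are shown in the same way, from RefSeq in GRCm38.p6, with the core of the response element, which reads GAAA, any 2 bases and GAAA again, or on the other strand TTTC, any 2 bases and TTTC, in capitals.
Rsad2: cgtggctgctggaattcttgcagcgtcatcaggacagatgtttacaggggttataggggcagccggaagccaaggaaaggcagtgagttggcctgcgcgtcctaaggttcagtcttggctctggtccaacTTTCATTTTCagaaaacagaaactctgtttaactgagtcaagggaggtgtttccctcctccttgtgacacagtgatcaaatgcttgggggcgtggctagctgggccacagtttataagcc
Ifit1: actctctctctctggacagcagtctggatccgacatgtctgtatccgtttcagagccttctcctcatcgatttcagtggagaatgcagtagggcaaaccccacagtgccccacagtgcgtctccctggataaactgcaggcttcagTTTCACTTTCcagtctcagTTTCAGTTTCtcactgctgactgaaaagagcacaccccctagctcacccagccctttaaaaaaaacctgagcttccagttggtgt
Rsad2 held 1 match and Ifit1 2. The nearest began 120 bases before the start in Rsad2 and 85 in Ifit1. The motif was in 15 of 21 windows of the antiviral list (71.4%), in 9 of the 14 that rose and had a window (64.3%) and in 2.64% of the tested genes. As above, these are matches of letters.

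Of 20 sensors, IRFs and STATs 13 rose and 0 fell (6 higher without NIL A, 5 higher without SDD B, 4 higher without SDD C and 1 lower without NIL B), and 10 and 2 without NIL C, at a median of 1.16. Stat2 had 1156, 1877 and 1740.4 in SDD, against 441, 669.97 and 535 in NIL (log2 change 1.52, SE 0.31, limma adjusted p = 0.00852). Zbp1, a sensor of Z-form nucleic acid, had 499.5, 766 and 872 in SDD, against 115, 214 and 199 in NIL (log2 change 2.02, SE 0.37, limma adjusted p = 0.00555). The RNA sensor Ifih1 (MDA5) had 1862, 3722 and 3416 in SDD, against 733, 1313 and 782 in NIL (log2 change 1.66, SE 0.48, limma adjusted p = 0.0389). Irf7 had 1795, 2939.6 and 2881 in SDD, against 456, 888 and 1262 in NIL (log2 change 1.63, SE 0.48, limma adjusted p = 0.0407). Irf7 lost its call without SDD A (limma adjusted p = 0.0658) or NIL B (limma adjusted p = 0.0554). Ifih1 and Irf7 lost their calls without SDD B (limma adjusted p = 0.125 and 0.122), SDD C (limma adjusted p = 0.128 and 0.13) or NIL A (limma adjusted p = 0.0861 and 0.0999). Ifih1 lost its call without NIL C (limma adjusted p = 0.0896). Irf7 did not pass with only the 6 SDD and NIL libraries fitted. Ifih1 and Irf7 did not pass with plain moderation (no trend, not robust), array weights or edgeR. Ifih1 did not pass with GC correction.

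MHC class I presentation genes depended on NIL C. With all libraries 6 of 16 rose and 0 fell (2 higher without SDD B or SDD C), and 14 rose without NIL C, at a median of 0.999. The immunoproteasome subunit Psmb9 had 104, 112 and 187 in SDD, against 18.7, 22.3 and 33.97 in NIL (log2 change 2.37, SE 0.42, limma adjusted p = 0.00503). The class I gene H2-Q4, which near-identical copies make uncertain, had 1179, 2208 and 2796 in SDD, against 243, 434 and 757 in NIL (log2 change 2.17, SE 0.41, limma adjusted p = 0.00629). B2m, the light chain, had 8465, 10505 and 11207 in SDD, against 4952, 7017 and 2640.1 in NIL (log2 change 1.15, SE 0.29, limma adjusted p = 0.0237). H2-K1 and the peptide transporter Tap1 did not pass with all libraries (limma adjusted p = 0.0673 and 0.177), and H2-K1 passed without NIL C (limma adjusted p = 0.0209). Of 24 cytokines and chemokines 3 rose and 3 fell (1 lower without SDD A), and 4 and 3 without NIL C. Among all tested genes 9.32% rose and 8.26% fell, and 15.2% and 13.9% without NIL C. Ccl5 had 188, 538 and 652 in SDD, against 21.2, 28.98 and 66.97 in NIL (log2 change 3.51, SE 0.63, limma adjusted p = 0.00522). The T-cell chemoattractant Cxcl10 had 2498, 10169.6 and 9635 in SDD, against 514, 1649 and 982 in NIL (log2 change 2.73, SE 0.59, limma adjusted p = 0.0116). The neutrophil chemokine Cxcl1 had 717, 1402 and 1363 in SDD, against 179, 523 and 353 in NIL (log2 change 1.79, SE 0.38, limma adjusted p = 0.0104). Ccl2 and Il6 did not pass (limma adjusted p = 0.186 and 0.0553). Il1rl1, the receptor of IL-33, fell, with 170.3, 595 and 685 in SDD, against 1508, 3335 and 1417 in NIL (log2 change -2.22, SE 0.53, limma adjusted p = 0.0183). So did Csf1, the macrophage growth factor, with 3946, 4869 and 5032 in SDD, against 6548, 6813 and 9282 in NIL (log2 change -0.70, SE 0.17, limma adjusted p = 0.0186). Csf1 lost its call without SDD A (limma adjusted p = 0.0735). B2m lost its call without SDD B (limma adjusted p = 0.0731). B2m and Cxcl10 lost their calls without SDD C (limma adjusted p = 0.0897 and 0.0548). H2-Q4, B2m, Cxcl10, Cxcl1, Il1rl1 and Csf1 did not pass with only the 6 SDD and NIL libraries fitted. Il1rl1 and Csf1 did not pass with array weights.

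Imprinted genes, which are expressed from 1 parental copy, rose in part. Of 24 tested 8 rose and 1 fell (3 lower without NIL B or SDD A), and 11 and 1 without NIL C, at a median of 0.27. Zim1, Peg3 and Usp29 follow one another on mouse chromosome 7, and all 3 rose. Zim1, a zinc finger gene expressed from the maternal copy, had 3039.9, 2536 and 2167 in SDD, against 400.4, 493 and 205 in NIL (log2 change 2.89, SE 0.36, limma adjusted p = 8.60e-04). Peg3, a zinc finger gene expressed from the paternal copy, had 23802, 25937 and 19863 in SDD, against 5117, 5429.95 and 3325 in NIL (log2 change 2.35, SE 0.24, limma adjusted p = 3.36e-04). Usp29, a ubiquitin protease gene expressed from the paternal copy, had 368, 377 and 278 in SDD, against 46.4, 26.8 and 24.3 in NIL (log2 change 3.40, SE 0.27, limma adjusted p = 8.19e-05).

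Peg3 and Usp29 start on opposite strands, 163 bases apart in RefSeq, and these bases are shown because both genes are read outward from them. They lie at chr7:6730420-6730582 in GRCm38.p6 and are printed on the plus strand, from Peg3 to Usp29, with CG dinucleotides in capitals (5 in all).
Peg3 to Usp29: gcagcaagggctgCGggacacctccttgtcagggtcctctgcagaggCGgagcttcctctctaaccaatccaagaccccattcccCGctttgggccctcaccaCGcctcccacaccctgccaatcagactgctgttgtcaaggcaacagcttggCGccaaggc

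A second imprinted region of chromosome 7 behaved differently. Magel2, a regulator of protein trafficking in hypothalamic neurons, had 189, 96.7 and 115 in SDD, against 8.14, 6.69 and 5.82 in NIL (log2 change 4.05, SE 0.39, limma adjusted p = 2.87e-04). Its neighbour Ndn (necdin) had 1566, 1241 and 1374 in SDD, against 1353, 1175 and 2045 in NIL (log2 change -0.09, SE 0.20, limma adjusted p = 0.767). Mkrn3, Peg12 and Snrpn in the same region did not pass either (limma adjusted p = 0.33, 0.489 and 0.742). Elsewhere Plagl1, a growth-inhibiting zinc finger gene, had 7512, 4341 and 4608 in SDD, against 2254, 1518 and 1150.2 in NIL (log2 change 1.75, SE 0.26, limma adjusted p = 0.00208). Mest had 44391, 17175 and 20383 in SDD, against 13725, 7389.7 and 7126 in NIL (log2 change 1.48, SE 0.34, limma adjusted p = 0.0161). Peg10 and Zdbf2 were 2.39- to 2.74-fold higher. Igf2, the fetal growth factor, had 8209.8, 4076 and 4607 in SDD, against 12309.5, 7931 and 9465 in NIL and did not pass (log2 change -0.86, SE 0.28, limma adjusted p = 0.0554). H19 was not analysed here. Zdbf2 lost its call without SDD A (limma adjusted p = 0.0978) or SDD C (limma adjusted p = 0.0825). Mest and Zdbf2 did not pass with only the 6 SDD and NIL libraries fitted. Mest and Zdbf2 did not pass with array weights or only the SDD and NIL libraries fitted and NIL C left out.

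**Figure D5:**
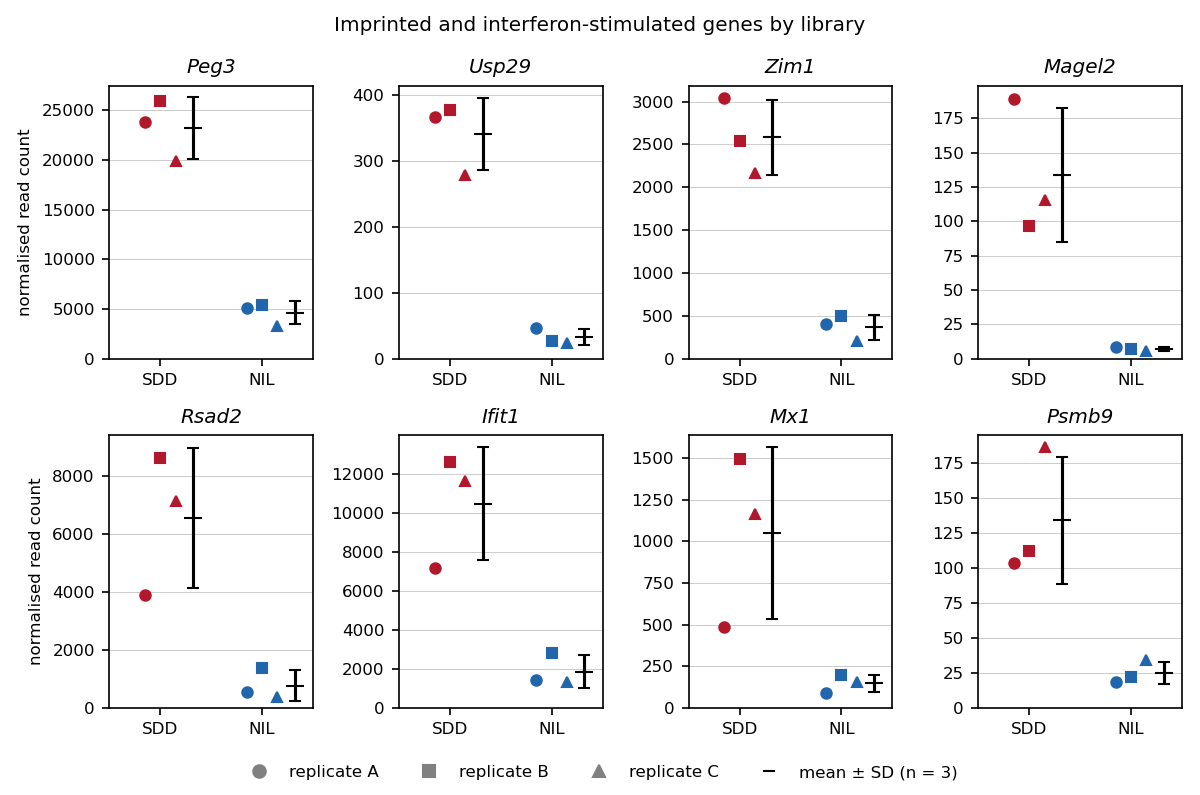
Normalised read counts of 4 imprinted genes (top) and 4 interferon-stimulated genes (bottom) in each SDD library (left, red) and NIL library (right, blue), with the mean ± SD of 3 libraries in black. All SDD libraries sit above all NIL libraries, and SDD A is the lowest SDD library in each interferon-stimulated gene.

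Growth factor genes fell more often than they rose. Of 27 tested 9 fell and 4 rose (2 higher without SDD A or SDD B, 1 higher without SDD C and 5 lower without SDD C), and 7 and 4 without NIL C, at a median of -0.50. Among all tested genes 8.26% fell and 9.32% rose, and 13.9% and 15.2% without NIL C. Fgf2, a mitogen of fibroblasts, had 114, 96.7 and 79.2 in SDD, against 489.9, 659 and 274 in NIL (log2 change -2.21, SE 0.29, limma adjusted p = 0.00112). Pdgfa had 91.3, 169 and 119 in SDD, against 319.8, 420.3 and 514 in NIL (log2 change -1.74, SE 0.24, limma adjusted p = 0.00164). Gas6, the ligand of AXL and MERTK, had 1027, 706 and 924 in SDD, against 2694, 1909.6 and 3214 in NIL (log2 change -1.54, SE 0.20, limma adjusted p = 0.00112). Igf1 had 67.7, 61.9 and 70.03 in SDD, against 281, 388 and 124 in NIL (log2 change -1.83, SE 0.43, limma adjusted p = 0.0174). Hgf and Vegfa did not pass (limma adjusted p = 0.466 and 0.153). In the WNT pathway 5 of 23 fell and 1 rose (3 lower without SDD A or SDD C), and 6 and 4 without NIL C. The secreted modulators Dkk2 and Dkk3 and the intracellular inhibitor Nkd2 fell 3.02- to 3.98-fold. Dkk2 had 126, 82.2 and 128 in SDD, against 465, 399 and 459 in NIL (log2 change -1.99, SE 0.20, limma adjusted p = 3.61e-04). Rspo3, which strengthens WNT signals, rose, with 716, 483 and 534 in SDD, against 213, 197 and 155 in NIL (log2 change 1.60, SE 0.30, limma adjusted p = 0.00624). Axin2, the general feedback target of the pathway, had 166, 303 and 173 in SDD, against 327, 415 and 487 in NIL (log2 change -0.97, SE 0.25, limma adjusted p = 0.0237). Lef1 did not pass (limma adjusted p = 0.533). Igf1 and Axin2 lost their calls without SDD A (limma adjusted p = 0.0551 and 0.0893) or SDD C (limma adjusted p = 0.0559 and 0.095). Igf1 lost its call without SDD B (limma adjusted p = 0.0574). Igf1 and Axin2 did not pass with only the 6 SDD and NIL libraries fitted. Axin2 did not pass with array weights or only the SDD and NIL libraries fitted and NIL C left out.

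The metabolic lists differed from one another. Of 24 cholesterol genes 7 rose and 0 fell (3 higher without SDD A and 4 higher without SDD B), and 14 and 1 without NIL C, at a median of 0.33. Stard4, a sterol carrier, had 909, 834 and 757 in SDD, against 369, 282 and 217 in NIL (log2 change 1.55, SE 0.18, limma adjusted p = 6.41e-04). Insig1, the sterol-sensing anchor of SCAP, had 1022, 852 and 849.6 in SDD, against 553, 498 and 361 in NIL (log2 change 0.96, SE 0.16, limma adjusted p = 0.00364). Of 22 glycolysis and hypoxia genes 4 fell and 1 rose (1 lower without SDD A, SDD B or SDD C), and 7 and 1 without NIL C. Ndrg1, a stress and differentiation gene, rose, with 903, 976 and 916 in SDD, against 334, 369 and 531 in NIL (log2 change 1.21, SE 0.19, limma adjusted p = 0.00273). The prolyl hydroxylase P4ha2 fell, with 648, 719 and 609 in SDD, against 1045, 1109 and 1496 in NIL (log2 change -0.87, SE 0.15, limma adjusted p = 0.005). Ldha, Pgk1 and Hk2 did not pass (limma adjusted p = 0.189, 0.217 and 0.138). Of 20 oxidative stress genes 4 fell and none rose (1 higher without NIL B, 2 lower without NIL B and 1 lower without SDD B or SDD C), and 6 fell without NIL C. Srxn1, a sulfiredoxin, had 1106, 2119 and 1833 in SDD, against 2907, 4305 and 3725 in NIL (log2 change -1.15, SE 0.23, limma adjusted p = 0.00827). Gpx3, a secreted glutathione peroxidase, had 182, 163 and 78.02 in SDD, against 554, 616 and 257 in NIL (log2 change -1.74, SE 0.45, limma adjusted p = 0.0262). None of 20 ribosome biogenesis genes was called in the fit of all libraries, at a median of -0.13, and 1 was lower without NIL C. Gpx3 lost its call without SDD B (limma adjusted p = 0.0523), SDD C (limma adjusted p = 0.103), NIL A (limma adjusted p = 0.064) or NIL B (limma adjusted p = 0.0605). Insig1, P4ha2, Srxn1 and Gpx3 did not pass with only the 6 SDD and NIL libraries fitted. Gpx3 did not pass with GC correction.

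Markers of other cell types were examined for the same comparison. Of 13 tested epithelial markers 6 fell and none rose, and 6 fell without NIL C. The summed value of all 18 was 2111 to 2364 in the SDD libraries and 3643 to 6641 in the NIL libraries. The defining marker Cdh1 was listed at 0 in 5 of 6 libraries and Epcam had 2.26, 1.93 and 9.22 in SDD, against 5.697, 11.1 and 0 in NIL. Most of the sum was Jup, the junction protein plakoglobin, with 2228, 1962 and 2179 in SDD, against 2672, 2454 and 5388 in NIL (log2 change -0.63, SE 0.25, limma adjusted p = 0.113). The plakophilin Pkp2 had 55.3, 74.5 and 66.96 in SDD, against 197, 144 and 225 in NIL (log2 change -1.50, SE 0.22, limma adjusted p = 0.00188). The keratin Krt8 had 0, 2.901 and 3.07 in SDD, against 13.02, 15.6 and 6.79 in NIL (log2 change -2.28, SE 0.56, limma adjusted p = 0.0201). Of 9 tested cartilage, bone and fat markers 1 rose and 1 fell (2 lower without NIL B or SDD B), and 1 and 1 without NIL C. Spp1 (osteopontin), which macrophages also make, fell, with 5479, 7906 and 9525 in SDD, against 31352, 48682 and 31506 in NIL (log2 change -2.29, SE 0.23, limma adjusted p = 3.07e-04). Pparg, the fat cell receptor, rose, with 57.5, 30.9 and 25.8 in SDD, against 8.14, 10.03 and 9.71 in NIL (log2 change 1.85, SE 0.40, limma adjusted p = 0.0114). Nestin (Nes), a progenitor intermediate filament, fell, with 836, 1286 and 949 in SDD, against 2521, 3559 and 3119 in NIL (log2 change -1.59, SE 0.18, limma adjusted p = 5.96e-04). Sox2 overlapped between groups (limma adjusted p = 0.82) and Pax6 was under the filter. Endothelial markers summed to 151 to 162 in the SDD libraries and 109 to 199 in the NIL libraries and muscle markers to 43.98 to 76.4 in the SDD libraries and 33.001 to 115 in the NIL libraries, with overlapping ranges and no marker called with all libraries. Krt8 and Pparg did not pass with only the 6 SDD and NIL libraries fitted. Krt8 did not pass with a pseudocount of 10, only the SDD and NIL libraries fitted and NIL C left out or edgeR. Krt8 and Pparg did not pass with array weights.

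Levels in the groups that carried HRAS(G12V) are given for 7 genes chosen from those above after their values were seen. Cdkn1a averaged 2586 in SDDIR and 6593 in RISDD, beside 3223 in SDD and 18484 in NIL, and Dcxr averaged 64.4 in SDDIR and 81.002 in RISDD, beside 81.3 in SDD and 621 in NIL. Nr4a1 averaged 5049.6 in SDDIR and 6375 in RISDD, beside 12451 in SDD and 274 in NIL, and Id1 averaged 2206 in SDDIR and 2435 in RISDD, beside 3670.3 in SDD and 374 in NIL. Peg3 averaged 4176 in SDDIR and 1809.9 in RISDD, beside 23200.5 in SDD and 4624 in NIL, and Magel2 averaged 33.03 in SDDIR and 2.701 in RISDD, beside 134 in SDD and 6.88 in NIL. Serpine2 averaged 667 in SDDIR and 952 in RISDD, beside 576 in SDD and 7089 in NIL. The SDDIR means are of 2 libraries and the other means of 3. These groups also received p53DD, RepSox, the stain, the sort and a second virus, and their values are a description with no test.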

How the data were processed

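RNA-seq libraries were made from sorted cells. Reads were processed with Trim Galore 0.6.10 and Salmon 1.10.3 against GRCm39, per the submitters' processing notes. The deposited signal values are gene counts divided by 1 constant per library, as whole reads could be recovered from the steps between values. The table lists 23077 genes, and 1 column, a repeat of another, was not used. Values were tested as log2(value + 1) with limma 3.58.1 (trend, robust) in R 4.3.3 over all 11 libraries of the 4 groups, keeping genes that reached 10 in 3 or more libraries, with Benjamini-Hochberg adjustment at 0.05. edgeR 4.0.16 and DESeq2 1.42.0 were run on the recovered reads of all these libraries but RISDD B as alternatives. The fits were also run on simulated libraries that shared the same spread and had no GC trend. These held no library like NIL C, so they cannot show how NIL C affects the calls. Upstream windows came from RefSeq tables in GRCm38.p6, a build other than that of the counts. Named genes were the delivered genes and Mnx1, the 15 largest rises and 15 largest falls of the ranking given above, and for each list its 3 lead members and up to 6 called members with a mean of at least 100. Aldh1a3, Jup, Mkrn3, Ndn, Peg10, Peg12, Snrpn and Zdbf2 were named beside these as the rest of their lists, and some genes that the rule names are not reported here. The members and lists were chosen with earlier results of these data known. The labels give replicate letters but do not say that these were separate cultures, so the p-values speak of spread among these libraries, which may be technical.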

Additional observations from a re-analysis of the deposited data

How the results depend on the processing

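With only the 6 SDD and NIL libraries fitted 371 genes were higher and 326 lower, against 1324 and 1174, and 1497 and 1275 with NIL C left out of that fit. Without 1 library in turn 647 to 2160 genes were higher and 584 to 1968 lower, fewest without SDD C and most without NIL C, and 1044 of the 2498 calls held in all 6 of these fits. With GC correction 1956 genes were higher and 1771 lower. edgeR gave 990 higher and 972 lower genes and DESeq2 1589 and 1623, and no setting called a gene in the opposite direction. Same-lettered SDD and NIL libraries deviated from their group means together with r = 0.22 (A), 0.19 (B) and 0.05 (C), and each of them correlated best with its own letter. The letters were not taken as pairs in the main fit, and whether they mark shared batches was not tested. With the replicate block 1474 genes were higher and 1303 lower. For Etv1, Myc, Dll4 and Hey1 lost calls show only in the counts of their lists. All other called genes named here kept their direction in every setting, and where a call was lost this is said beside the gene. Genes that did not pass turned sign as follows (log2 changes). Cdkn2a was -0.0621 to 0.37 without 1 library. Cnn1 was 0.0397 with edgeR, 0.0473 with DESeq2, 0.0799 with GC correction and -0.39 to 0.49 without 1 library. Dcn was -0.20 with GC correction. Dusp6 was -0.0943 to 0.026 without 1 library. Epcam was -0.60 with quantile scaling, -0.0801 with a pseudocount of 10, -0.65 with array weights, -0.97 with only the SDD and NIL libraries fitted and NIL C left out, -0.19 with edgeR, -0.25 with DESeq2 and -0.97 to 0.83 without 1 library. Epha4 was -0.0006 with upper-quartile scaling, -0.0396 with quantile scaling, -0.0186 with array weights, -0.13 with GC correction and -0.22 to 0.37 without 1 library. Hgf was -0.15 with array weights, -0.0263 with only the SDD and NIL libraries fitted and NIL C left out, -0.13 with GC correction and -0.0263 to 0.70 without 1 library. Isl1 was -0.12 with GC correction and -0.0506 to 0.26 without 1 library. Itgb1 was 0.19 with quantile scaling and -0.50 to 0.18 without 1 library. Lef1 was -0.0322 to 0.65 without 1 library. Lhx3 was 0.20 with quantile scaling, 0.29 with array weights, 0.28 with only the SDD and NIL libraries fitted and NIL C left out, 0.13 with GC correction and -0.41 to 0.28 without 1 library. Lum was -0.51 to 0.15 without 1 library. Mcm2 was 0.0279 with quantile scaling, 0.46 with array weights, 0.37 with only the SDD and NIL libraries fitted and NIL C left out, 0.11 with GC correction and -0.30 to 0.37 without 1 library. Ndn was 0.088 with array weights, 0.14 with only the SDD and NIL libraries fitted and NIL C left out and -0.26 to 0.14 without 1 library. Neurog2 was 0.21 with quantile scaling, 0.27 with array weights, 0.26 with only the SDD and NIL libraries fitted and NIL C left out and -0.50 to 0.26 without 1 library. Notch1 was 0.0147 with array weights, 0.12 with only the SDD and NIL libraries fitted and NIL C left out, 0.12 with GC correction and -0.35 to 0.12 without 1 library. Peg12 was 0.0039 with array weights and 0.0865 with GC correction. Rrm2b was -0.46 with array weights, -0.42 with only the SDD and NIL libraries fitted and NIL C left out, -0.038 with edgeR, -0.0375 with DESeq2, -0.41 with GC correction and -0.42 to 0.44 without 1 library. Scn2a was -0.33 with array weights, -0.31 with only the SDD and NIL libraries fitted and NIL C left out and -0.31 to 1.01 without 1 library. Snrpn was -0.31 to 0.0204 without 1 library. Sox2 was -1.17 to 0.55 without 1 library. Thy1 was 0.0627 with only the SDD and NIL libraries fitted and NIL C left out, 0.0777 with GC correction and -0.35 to 0.0627 without 1 library. Twist1 was -0.0561 with upper-quartile scaling, -0.11 with edgeR, -0.0885 with DESeq2 and -0.24 to 0.36 without 1 library. The causes of these changes were not tested. Depth limits genes with values near 10, such as Epcam and Isl2.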

Other observations

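HOX genes record the position along the body from which a fibroblast came, and no HOX gene was called. Of 29 tested HOX genes and partners 3 rose and 0 fell (5 higher without NIL B), and 4 and 0 without NIL C, at a median log2 change of 0.29. The counts of rises lay near the shares of all tested genes, 9.32% and, without NIL C, 15.2%. The called ones were the cofactor genes Meis1, Meis2 and Pbx3. Meis1 had 2164, 1169 and 1541 in SDD, against 858, 583 and 754 in NIL (log2 change 1.12, SE 0.23, limma adjusted p = 0.00883). Meis2 and Pbx3 were 1.61- to 1.74-fold higher (limma adjusted p = 0.00565 and 0.0489). Pbx3 lost its call without SDD A (limma adjusted p = 0.162) or SDD B (limma adjusted p = 0.138). Meis1, Meis2 and Pbx3 did not pass with only the 6 SDD and NIL libraries fitted. Meis1, Meis2 and Pbx3 did not pass with GC correction. Pbx3 did not pass with upper-quartile scaling, quantile scaling, no filter, plain moderation (no trend, not robust), array weights, only the SDD and NIL libraries fitted and NIL C left out or edgeR.

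Among 21 genes of the neuronal BAF subunit switch, REST and DNA methylation 5 rose and 0 fell (1 higher without SDD A or SDD C and 3 higher without SDD B), and 11 rose without NIL C. Bcl11a, a zinc finger gene of neurons and blood, had 717, 522 and 663 in SDD, against 296, 249 and 334 in NIL (log2 change 1.11, SE 0.21, limma adjusted p = 0.00671). Of 17 retinoic acid genes 1 rose and 3 fell (2 and 3 without NIL C, 2 higher without NIL B). Shares of all tested genes were 9.32% higher and 8.26% lower, and 15.2% and 13.9% without NIL C. Aldh1a3, which makes retinoic acid, had 149, 85.1 and 62.7 in SDD, against 34.99, 41.2 and 30.1 in NIL (log2 change 1.37, SE 0.30, limma adjusted p = 0.0117). Of 9 SOX genes 1 rose, Sox6, with 766, 755 and 422 in SDD, against 229, 254 and 174 in NIL (log2 change 1.53, SE 0.40, limma adjusted p = 0.0269), and 0 fell (0 higher without SDD A or SDD B and 1 lower without SDD B), and 1 and 0 without NIL C. Sox6 lost its call without SDD A (limma adjusted p = 0.0989), SDD B (limma adjusted p = 0.0919) or NIL C (limma adjusted p = 0.0518). Aldh1a3 did not pass with only the 6 SDD and NIL libraries fitted. Aldh1a3 and Sox6 did not pass with array weights. Aldh1a3 did not pass with only the SDD and NIL libraries fitted and NIL C left out.

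Of 17 neurotrophic factor and receptor genes 3 rose and 1 fell (3 and 2 without NIL C, 2 lower without NIL A or NIL B). The receptor of CNTF-family cytokines Lifr had 1336, 1486 and 1069.6 in SDD, against 713, 856 and 387 in NIL (log2 change 1.05, SE 0.25, limma adjusted p = 0.0185). Fgfr2 had 298, 299 and 288 in SDD, against 168, 165 and 143 in NIL (log2 change 0.90, SE 0.17, limma adjusted p = 0.00584), both for classes of factor in the medium of both groups. Of 24 integrated stress response genes 3 rose and 2 fell (8 and 2 without NIL C, 1 lower without NIL B, SDD A, SDD B or SDD C). With all libraries both counts lay near the shares of all tested genes, 9.32% higher and 8.26% lower. Without NIL C those shares were 15.2% and 13.9%. Atf4, the transcription factor of this response, had 3970.1, 4076 and 4240.1 in SDD, against 3193, 2951 and 3433 in NIL (log2 change 0.36, SE 0.10, limma adjusted p = 0.0361). Vldlr, a lipoprotein and reelin receptor, had 6532, 6728 and 6863 in SDD, against 4423, 4194 and 3447 in NIL (log2 change 0.75, SE 0.12, limma adjusted p = 0.00346). Of 4 tested neural progenitor markers 1 rose, Gli3, with 3297, 3392 and 3670.05 in SDD, against 2499.99, 2309.8 and 2735 in NIL (log2 change 0.46, SE 0.11, limma adjusted p = 0.0213), and 1 fell, which was Nes (0 higher without SDD B or SDD C), and 1 and 1 without NIL C. Lifr and Atf4 lost their calls without SDD A (limma adjusted p = 0.0645 and 0.0716). Lifr, Atf4 and Gli3 lost their calls without SDD B (limma adjusted p = 0.0589 to 0.095). Atf4 and Gli3 lost their calls without SDD C (limma adjusted p = 0.125 and 0.0893). Atf4 lost its call without NIL A (limma adjusted p = 0.0625) or NIL B (limma adjusted p = 0.0765). Lifr, Gli3 and Atf4 did not pass with only the 6 SDD and NIL libraries fitted. Atf4 did not pass with upper-quartile scaling, no filter, plain moderation (no trend, not robust) or edgeR.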
